A study of Mus musculus with 11 samples.

Results

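Iron handling was followed through 8 genes, Tfrc, Steap3, Trf, Fth1, Ftl1, Cp, Heph and Hmox1, out of 23940 genes that were counted in at least 3 cells of this single-cell RNA sequencing study of mouse brain cortex. The members were given as a list of gene names, and all 8 were found in the count tables. They were read in every cell type that the libraries held, and described in endothelial, choroid plexus, glial and myeloid cells across 4 conditions. All mice were C57BL/6, and the study used females unless stated otherwise. Juvenile mice were taken at P10 (4 libraries), Adult mice at 7 to 11 weeks (3 libraries) and Aged mice at 18 months (2 libraries), all untreated. EAE mice (2 libraries), 7 to 11 weeks old and female, had experimental autoimmune encephalomyelitis at the disease peak, induced with a myelin oligodendrocyte glycoprotein peptide in Freund's adjuvant and pertussis toxin. Each library pooled cortices of 6 mice (Juvenile and Adult) or 3 mice (Aged and EAE), so that the spread between single animals was not measured. EAE mice also received the adjuvant and the toxin, which no other group did, and the inflammation cannot be told apart from them here.

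Iron reaches the brain across the endothelium of the blood-brain barrier. Transferrin (Trf) carries ferric iron in plasma and is made in the brain by oligodendrocytes and the choroid plexus, the transferrin receptor (Tfrc) takes the loaded protein into endosomes, and Steap3 reduces the iron there. Ferritin, a shell of heavy (Fth1) and light (Ftl1) chains, stores iron; ceruloplasmin (Cp) and hephaestin (Heph) are copper ferroxidases that oxidise iron as it leaves a cell; heme oxygenase 1 (Hmox1) releases iron from heme. When a cell is short of iron, iron regulatory proteins bind hairpins called iron-responsive elements (IREs) and protect the Tfrc mRNA from decay, while they block translation of the ferritin mRNAs. Transcript counts can therefore reflect the first of these controls but not the second, and do not separate it from other influences on the mRNA level.

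The IRE hairpins of the members are shown because they set which transcripts a count can report on. In GRCm38, an unpaired C, 5 bases, the loop CAGTG with a further base other than G, and 5 bases paired with the first 5 were found in 3 members. Each sequence is given 5′ to 3′ in the sense of the transcript, with the unpaired C and the loop in capitals.
Fth1, 5′ UTR, chr19:9982733-9982759, plus strand: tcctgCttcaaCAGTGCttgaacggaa
Ftl1, 5′ UTR, chr7:45459780-45459806, minus strand: tcttgCttcaaCAGTGTttgaacggaa
Tfrc, 3′ UTR, chr16:32631220-32631246, plus strand: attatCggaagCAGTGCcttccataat
Tfrc, 3′ UTR, chr16:32631599-32631625, plus strand: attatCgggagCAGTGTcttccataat
Tfrc, 3′ UTR, chr16:32631664-32631690, plus strand: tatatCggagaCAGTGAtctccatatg
Tfrc, 3′ UTR, chr16:32631711-32631737, plus strand: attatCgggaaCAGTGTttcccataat
The same hairpin was present in 16 of 20232 genes with a 5′ UTR (0.0791%) and in 92 of 20898 genes with a 3′ UTR (0.44%). A match of these letters is a description of sequence and not a measurement of binding.

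The genes lie at chr16:32608920-32632794 (Tfrc), chr1:120190757-120272705 (Steap3), chr9:103204001-103230444 (Trf), chr19:9980598-9985098 (Fth1), chr7:45457944-45459884 (Ftl1), chr3:19957054-20009145 (Cp), chrX:96455359-96574485 (Heph) and chr8:75093621-75100589 (Hmox1). Cp overlaps Hps3 on the other strand over 13201 bases, and Heph overlaps Hsf3 over 936 bases. On the same strand, Trf overlaps the protein-coding Gm20425 over 26307 bases, almost its whole length. Gm20425 was not among the genes counted in at least 3 cells. Also on the same strand, Heph overlaps the pseudogenes Gm14935 (1708 bases) and Rpl17-ps8 (621 bases), and Ftl1 the miRNA gene Gm22133 (109 bases). Whether the counting used strand, and how it treated reads shared by genes, is not given in the sources used here, so reads of these pairs may be mixed or lost.

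The 11 libraries held 54646 cell barcodes and 15755504 to 34326349 UMIs each, and 50625 cells passed the filters. Clusters were named only from marker genes, so that every cell type name stands for cells like that type: 20027 endothelial cells, 6679 choroid plexus epithelial cells, 8246 microglia, 2265 perivascular macrophages, 1303 astrocytes and 257 oligodendrocytes, the last counted in 7 libraries. Adult 1 held 100 named endothelial cells against 1990 and 2112 in Adult 2 and 3, and 922 cells with endothelial markers and hemoglobin RNA, mostly of Adult 1, stayed unnamed. Levels are CPM, the UMIs of a gene per 1000000 UMIs of that cell type in a library. The pairs Juvenile 1 and 2, Juvenile 3 and 4, and Adult 2 and 3 differed little (ratio of the observed to the expected squared difference of 1.03 to 1.41 in endothelial cells), and so did Aged 1 and 2 and EAE 1 and 2 (1.18 to 1.45), against 2.07 to 4.81 for all other pairs of the same condition. Means ± SD average the first 3 pairs as 1 sample each, giving n = 2 per condition. For Aged and EAE these 2 are the single libraries of a like pair, so that their SD is not of the same kind as in Juvenile and Adult. The tests summed only Adult 2 and 3, so that Juvenile entered them as 4 samples; with Juvenile summed to 2 samples as well (8 units), all 21 Juvenile, 5 of 6 Aged and 16 of 18 EAE calls of members passed. The p-values measure a spread between libraries that may be technical. Free RNA was read from T and NK cells, in which Cp was at 0 to 16.2 CPM, Hmox1 at 0 to 36.8, Trf at 0 to 82.9 and Heph at 0 CPM. A level of these genes inside that range is not read as expression. B cells went higher, at 177 CPM of Trf and 44.2 CPM of Hmox1 in 26 cells of Adult 1, and at up to 27.4 CPM of Cp. Measured by B cells, Trf of Juvenile choroid plexus and of Adult astrocytes would also lie inside the range. Steap3 was at 0 to 4.22 CPM in 9 of the 10 libraries with T and NK cells and at 31.2 CPM in Juvenile 1, from 1 UMI in 11 cells. That single value puts its levels in Adult, Aged and EAE endothelium and in all astrocyte samples inside the full range; in the EAE libraries T and NK cells held 0.35 and 0.36 CPM of Steap3. Tfrc was at 7.52 to 32.3 CPM in T and NK cells, which can express it themselves, and its Adult, Aged and EAE levels in choroid plexus and microglia lay inside or below that range.

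Each gene had its own order of cell types. Of 120 member by cell-type-pair comparisons among 6 cell types, 80 passed the edgeR test at an adjusted p under 0.05, where 56.6% of all gene by pair values did (30.9% with the first-named type higher and 25.6% with it lower). Tfrc was higher in endothelial cells than in each of the 5 other types, by 2.62 to 4.10 on the log2 scale, in 11 of 11 libraries (7 of 7 for oligodendrocytes), with a median of 216 CPM against 21.2 in microglia. Steap3 passed against 4 types, at a median of 25.6 CPM in endothelial cells and 19.9 CPM in astrocytes, which did not differ beyond their spread (adjusted p = 0.079), and it was at 0 CPM in all 7 oligodendrocyte samples. Of the 6 types, Trf was highest in Adult and Aged oligodendrocytes, at 7418 to 8294 CPM in the Adult libraries. Over all conditions oligodendrocytes passed against 4 of the 5 types, not against perivascular macrophages. The latter followed at 968 to 2432 CPM and microglia at 599 to 1233 CPM. Oligodendrocytes held 221 CPM in Juvenile 1 and 1395 in Juvenile 2, against 1178 and 1017 CPM in perivascular macrophages. Fibroblast-like cells, not among the 6, held 72.0 to 2290 CPM of Trf. In EAE they were at 2290 and 1734 CPM, from 20 and 18 cells, above perivascular macrophages at 968 and 1167 CPM.

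Fth1, the most abundant member, overlapped more between types. It passed against 3 types in oligodendrocytes and 2 types each in endothelial cells and perivascular macrophages, whose own values were not told apart (adjusted p = 0.92). The endothelial call against microglia passed in 20 of 24 alternatives, and its CPM was the higher in only 5 of 11 libraries. Of the 6 types, Ftl1 was highest in perivascular macrophages and then microglia, in every library. Monocytes and macrophages, not among the 6, held 810 to 4456 CPM of Ftl1, more than perivascular macrophages in EAE 1 and Juvenile 4. Cp was higher in perivascular macrophages than in the 5 other types and higher in endothelial cells than in 4. It stayed at 0 to 12.3 CPM in choroid plexus, microglia and oligodendrocytes, inside the range of T and NK cells. Heph was called higher in the choroid plexus than in all 5 other types, but its CPM exceeded that of astrocytes in only 5 of 11 libraries. CPM and the fitted levels, which are scaled between samples by TMM, thus gave different directions for this pair. Outside the 6 types, fibroblast-like cells held the highest mean Steap3 over the conditions (22.4 to 86.2 CPM) and reached 737 CPM of Cp and 172 CPM of Heph, from 8 to 321 UMIs per condition. Mural cells held 52.3 to 496 CPM of Cp, above perivascular macrophages in 9 of 11 libraries. Hmox1 was higher in microglia and in perivascular macrophages than in the 4 remaining types, by 3.54 to 4.59 on the log2 scale against endothelial cells and choroid plexus, and these 2 myeloid types did not differ beyond their spread.

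**Figure D1:**
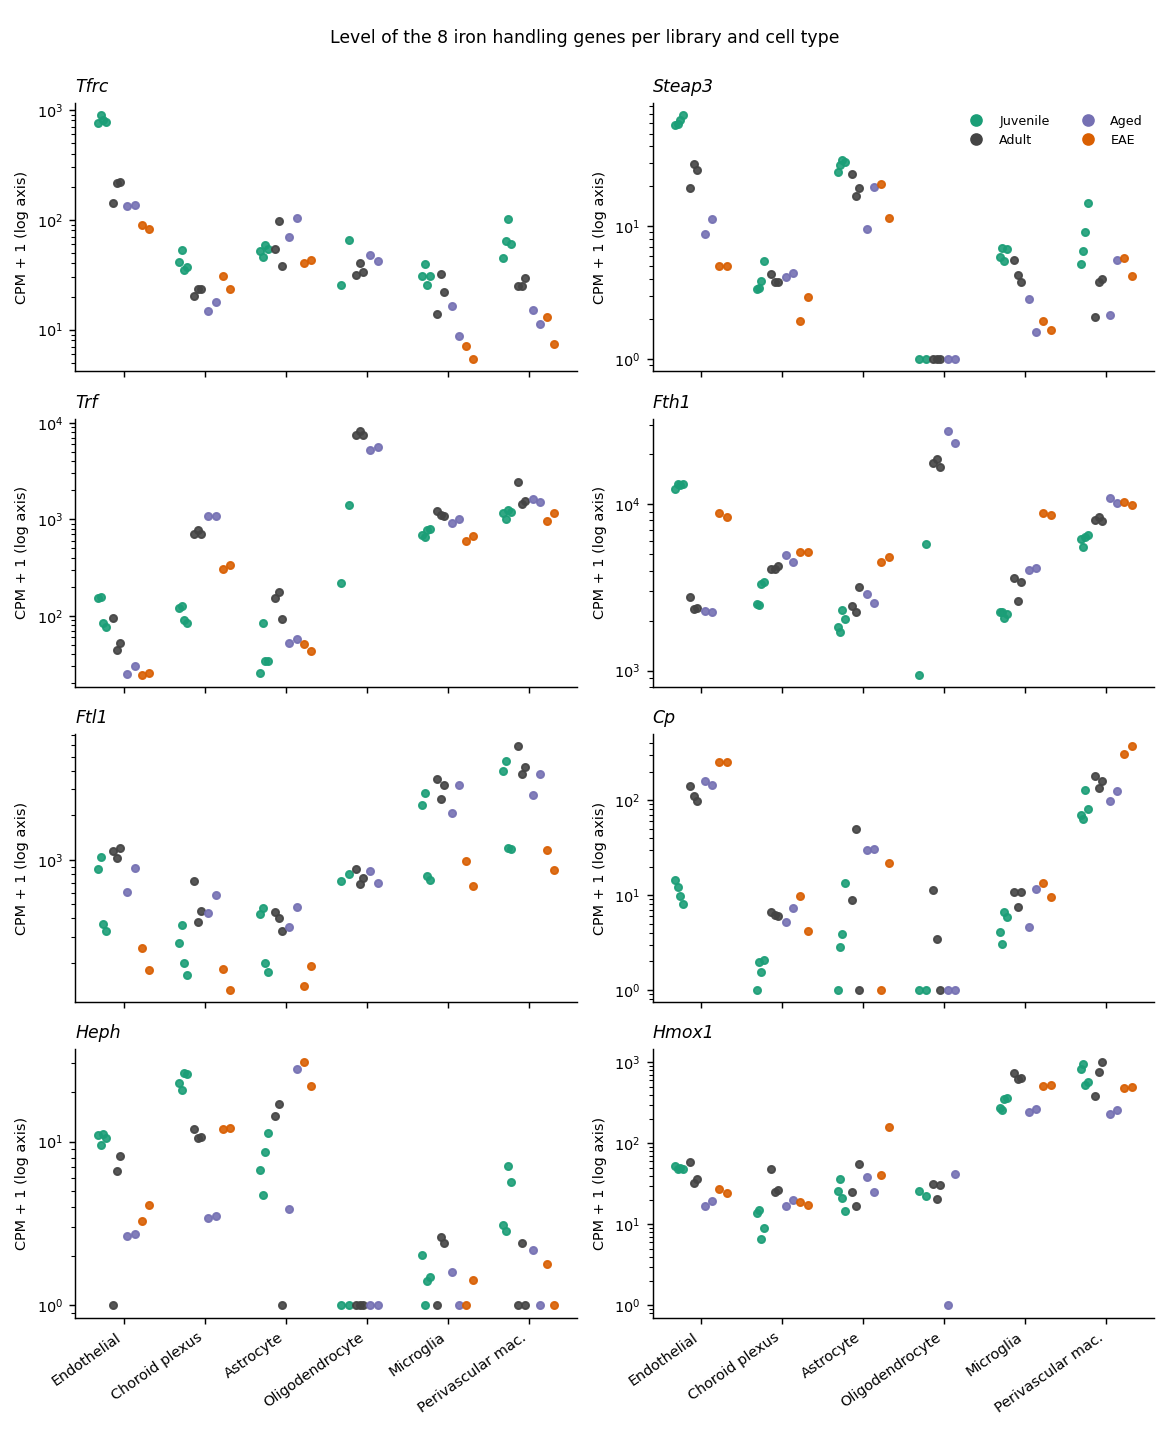
Level of each member as CPM + 1 on a log axis (y) in 6 cell types (x), with 1 point per library coloured by condition. Tfrc stood highest in endothelial cells (82.0 to 890 CPM), Trf in Adult and Aged oligodendrocytes, Hmox1 in microglia and perivascular macrophages, and Ftl1 in perivascular macrophages.

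Age and EAE were each compared with Adult in 5 cell types, to ask in which cells iron handling differed in development, ageing and inflammation. Of the 40 member by type pairs, 37 passed the filter on low counts; the others were Heph in microglia and Heph and Steap3 in perivascular macrophages. In Juvenile cells 7 pairs were higher and 14 lower, where 31.4% of all gene by type pairs were called, 14.7% higher and 16.7% lower. In Aged cells 1 was higher and 5 lower (2.92% of all pairs called, 1.31% higher and 1.62% lower). In EAE 6 were higher and 12 lower (22.6% of all pairs called, 12% higher and 10.6% lower). Leaving out Ftl1, for which condition and library cannot be told apart, left 20 Juvenile, 6 Aged and 16 EAE calls. When each pair of like libraries was summed to 6 units, 15 of the 21 Juvenile, 3 of the 6 Aged and 8 of the 18 EAE calls passed.

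**Figure D2:**
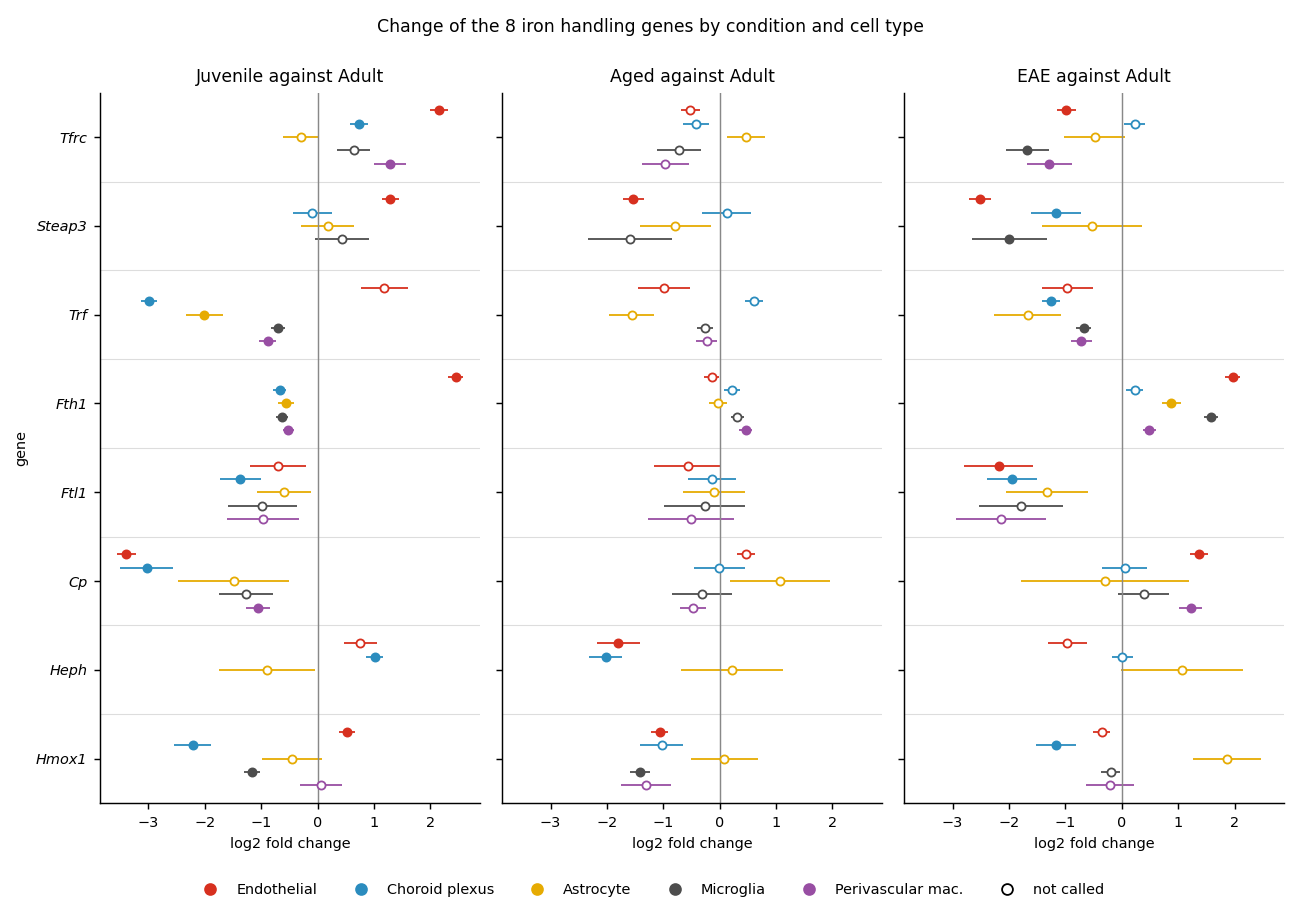
Log2 fold change (x) of the 8 members (y) in Juvenile, Aged and EAE against Adult, with the standard error as a bar and 1 point per cell type; filled points have an adjusted p under 0.05. Fth1 in endothelial cells stood at 2.45 in Juvenile and 1.97 in EAE, while in Juvenile the other 4 types stood below 0.

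In the endothelium of Juvenile mice, Tfrc, Steap3, Fth1 and Hmox1 were higher and Cp was lower than in Adult, 5 of 8 members called where 36.4% of endothelial genes were (17.6% higher and 18.8% lower). Almost all Juvenile endothelial cells (99.1%) fell in a single cluster, while 73.1% of Adult ones fell in another. Tfrc, the receptor, was at 765, 890, 807 and 771 CPM in Juvenile 1 to 4 and at 141, 216 and 217 CPM in Adult 1 to 3. Its means were 808 ± 27 and 179 ± 53.5 CPM (SD, n = 2), which is higher in Juvenile by 2.15 on the log2 scale (SE 0.15; adjusted p = 4.2e-08). No Juvenile library came near an Adult one. After thinning each cell to 1000 UMIs, a Tfrc UMI was seen in 45.7 to 49.5% of Juvenile endothelial cells, in 10.5 to 18.9% of Adult ones and in 2.5 to 4.0% of Juvenile microglia at the same depth; before thinning the endothelial shares were 80.5 to 85.7% and 22 to 44.2%. Steap3, the endosomal reductase that serves the same uptake, was at 56.6 to 67.5 CPM in Juvenile against 18.4 to 28.3 in Adult (log2 1.29, SE 0.15, adjusted p = 8.5e-06).

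In the same cells a storage gene was higher and a ferroxidase gene lower. Fth1, the heavy ferritin chain, was at 12351, 13232, 13058 and 13181 CPM in the Juvenile libraries and at 2785, 2359 and 2377 CPM in the Adult ones, higher by 2.45 on the log2 scale (SE 0.13, adjusted p = 1.8e-09). It was the only one of the 5 cell types in which Juvenile Fth1 was higher than Adult; in the 4 others it was lower. Cp was at 13.5, 11.2, 8.86 and 7.11 CPM in Juvenile and at 141, 108 and 97.1 CPM in Adult (log2 fold change -3.39, SE 0.16, adjusted p = 4.7e-10). The Juvenile values lay inside the range of free RNA. Hmox1 passed by a small margin (log2 0.52, SE 0.14, adjusted p = 0.0078) with overlapping libraries, and did not pass with DESeq2 or with 6 units (adjusted p = 0.225 with 6 units). Tfrc, Fth1, Cp and Steap3 passed under all 25 alternatives. Trf was at 76.2 to 157 CPM against 43.7 to 95.1 in Adult (log2 1.18, SE 0.41, adjusted p = 0.061), and Heph at 8.55 to 10.1 against 0 to 7.19 CPM (log2 0.76, SE 0.30, adjusted p = 0.060); each passed in 6 of 25 alternatives.

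**Figure D3:**
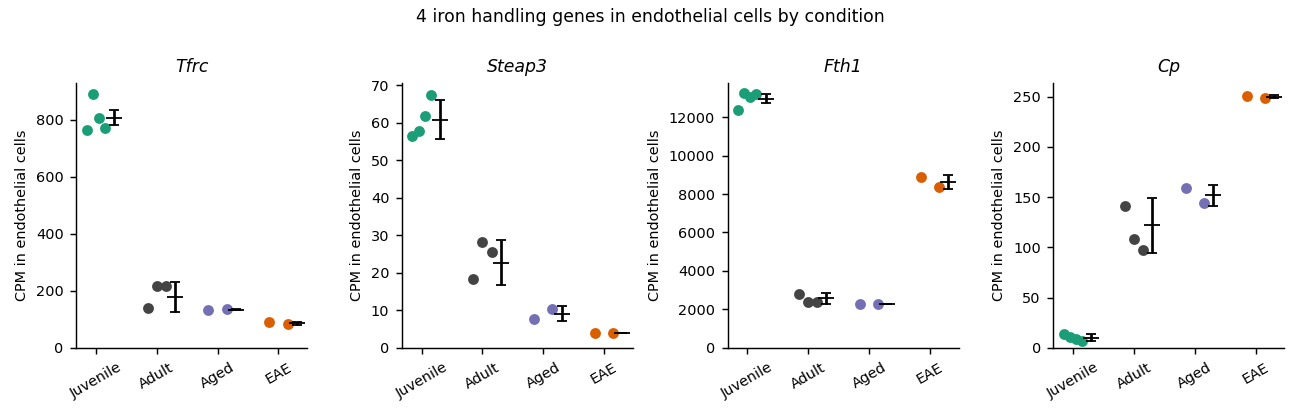
CPM (y) of Tfrc, Steap3, Fth1 and Cp in endothelial cells by condition (x); coloured points are libraries and black marks give the mean ± SD with n = 2. Fth1 stood at 12351 to 13232 CPM in Juvenile and 8387 to 8891 in EAE against 2359 to 2785 in Adult, while Tfrc was high in Juvenile only.

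In Aged endothelium 3 members were lower than in Adult, where 6.19% of genes were called (2.42% higher and 3.77% lower). The cluster that held 68.3% of Aged endothelial cells held 19.7% of Adult ones. Steap3 was at 7.72 and 10.5 CPM (log2 fold change -1.53, SE 0.18, adjusted p = 0.00020) and Hmox1 at 16.1 and 18.3 CPM against 31.8 to 58.3 in Adult (log2 fold change -1.07, SE 0.16, adjusted p = 0.0010). Both passed under all 25 alternatives. The Aged Hmox1 values lie inside the range of free RNA, as do those of Adult 2 and 3 (31.8 and 35.7 CPM). T and NK cells held 11.2 and 6.34 CPM of Hmox1 in Aged against 16.2 to 36.8 CPM in Adult. The part of free RNA in the Hmox1 call was not tested. Heph was at 1.64 and 1.74 CPM, with an overlap because Adult 1 had no UMI, and did not pass without either Aged library. Tfrc, at 132 and 135 CPM, was below all 3 Adult libraries but did not pass (log2 fold change -0.52, SE 0.16, adjusted p = 0.073); it passed in 5 of 25 alternatives, among them that without Adult 1. Fth1 was at 2275 and 2258 CPM, with a log2 difference of -0.14 (SE 0.13, adjusted p = 0.60).

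In EAE the endothelium had 2 members higher and 3 lower, where 24% of genes were called (13.7% higher and 10.3% lower). Of EAE endothelial cells 49.0% fell in a cluster made up mostly of them, and 47.9% in the cluster that held most Aged cells. Fth1 was at 8891 and 8387 CPM, above every Adult library (log2 1.97, SE 0.14, adjusted p = 9.8e-08), and Cp, an acute-phase ferroxidase, at 251 and 249 CPM (log2 1.37, SE 0.16, adjusted p = 2.0e-05). Tfrc fell to 89.1 and 82.0 CPM (log2 fold change -0.98, SE 0.16, adjusted p = 0.00046), and Steap3 to 4.06 and 4.05 CPM (log2 fold change -2.52, SE 0.20, adjusted p = 2.7e-07). Fth1, Cp and Steap3 passed under all 25 alternatives, and Tfrc did not pass with 6 units (adjusted p = 0.061). Fth1 was thus high in both Juvenile and EAE endothelium, while Tfrc, Steap3 and Cp stood on opposite sides of Adult in the 2 conditions; the comparisons share the Adult libraries.

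Endothelial cells were subclustered without use of the iron genes and named from markers of vessel position, to see which vessels carried these transcripts. Adult 1 had too few cells for this, which left 10 libraries. Arterial cells were compared with all other endothelial cells of the same library, and 3 members were called, where 27.3% of genes were (12.1% higher and 15.2% lower). Tfrc was at 6.45 to 46.5 CPM in arterial cells and at 83.6 to 937 CPM in all remaining ones (log2 -3.70, SE 0.44, adjusted p = 0.00022), lower in 10 of 10 libraries. Steap3 was also lower in arterial cells of all 10 libraries (log2 fold change -1.43, SE 0.32, adjusted p = 0.0019). Cp was higher in arterial cells, at 77.4 to 614 CPM against 5.12 to 247 CPM (log2 2.34, SE 0.47, adjusted p = 0.0060), though not with 6 units (adjusted p = 0.061). In venous cells Cp (log2 1.06, SE 0.13, adjusted p = 1.2e-06) and Fth1 (log2 0.83, SE 0.13, adjusted p = 0.0017) were higher than in the others, in 10 of 10 libraries, where 28.9% of genes were called (14% higher and 14.9% lower). Both passed under all 24 alternatives. Leading genes of the venous cells included Vcam1, Icam1, Lrg1 and Lcn2, so that vessel position and endothelial activation cannot be told apart here. Arterial samples held 30 to 120 cells and venous ones 10 to 215.

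By condition, Tfrc was lowest in arterial cells in all 4. It was at 895 to 1136 CPM in capillary cells of the venous side in Juvenile, overlapping the other capillary cells at 922 to 1037 CPM, and at 279 and 291 CPM there in Adult. The other capillary cells are those that no marker list named, so that markers do not place them between the 2 capillary sides. Their largest subcluster scored 0.774 on the list of venous-side capillary markers. The cells called venous-side, which were named from venous markers, scored 0.614. Juvenile Fth1 differed between the endothelial subtypes. It was at 2149 to 2931 CPM in arterial cells, 3151 to 3972 in capillary cells of the arterial side, 12099 to 12731 in the other capillary cells, 17292 to 20932 on the venous side and 15443 to 19970 CPM in venous cells. No libraries overlapped between the first 4 of these groups. Arterial cells were the group in which Juvenile Fth1 was below Adult, at 3918 and 4032 CPM. Adult Fth1 took another shape, with 3918 to 4623 CPM in arterial and venous cells and 1913 to 2263 CPM in the capillary cells. In EAE it was at 4949 and 4998 CPM in arterial cells, 6641 to 9930 in capillary cells and 15400 and 16997 CPM in venous cells. The difference of these profiles between conditions was not tested. Trf reached 332 to 616 CPM in the Juvenile cells with tip cell markers, 39 to 75 cells per library, above the free RNA range, and 12.4 to 25.8 CPM in the same subset of EAE.

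**Figure D4:**
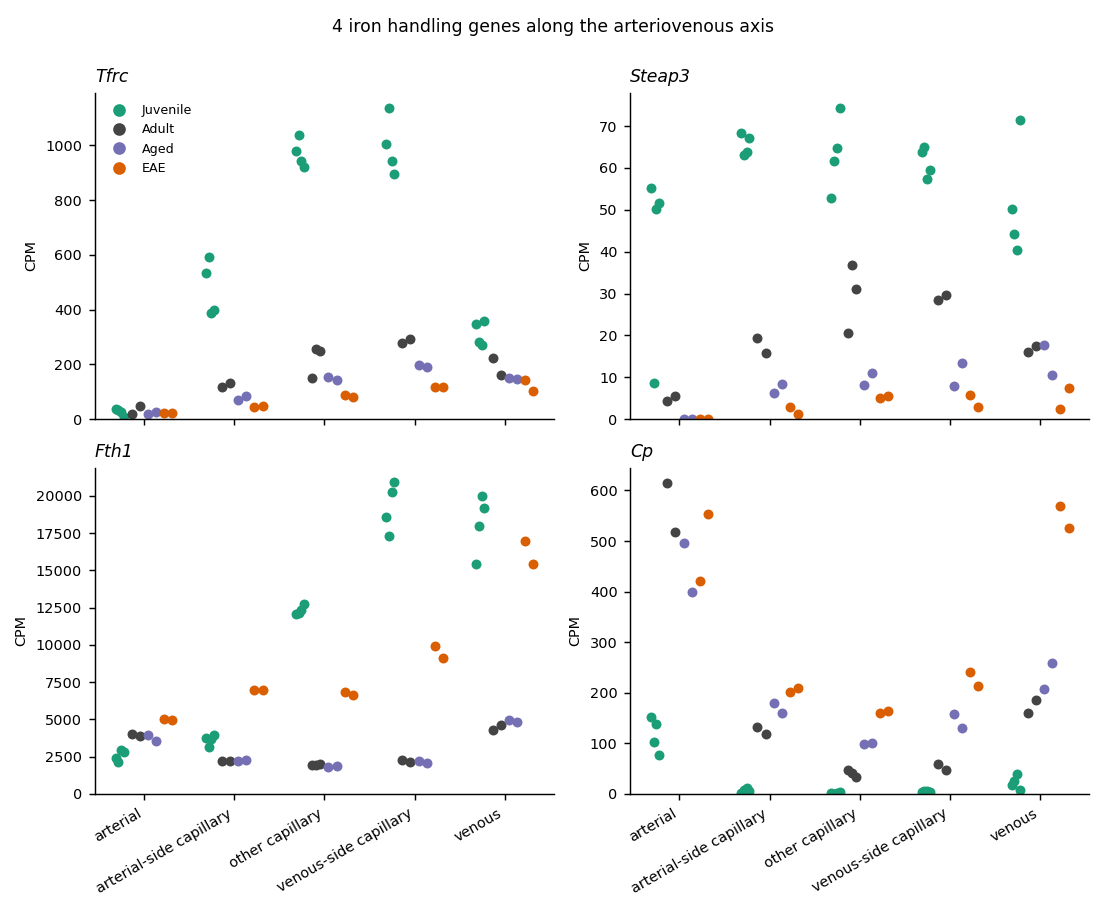
CPM (y) of Tfrc, Steap3, Fth1 and Cp in 5 endothelial subtypes (x), drawn from arterial to venous, with 1 point per library coloured by condition. Markers do not place the other capillary cells, drawn among them. Juvenile Fth1 was at 2149 to 2931 CPM in arterial cells and at 17292 to 20932 CPM in venous-side capillary cells. Tfrc stayed at 46.5 CPM or less in arterial cells.

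The choroid plexus, the epithelium that makes cerebrospinal fluid, differed from the endothelium. In Juvenile 2 members were higher and 5 lower, 7 of 8 called where 57.1% of its genes were (27.6% higher and 29.5% lower), and 83.9% of these cells fell in a cluster other than the one that held 90.3% of Adult cells. Trf was at 119, 126, 90.6 and 83.5 CPM in Juvenile and at 709, 771 and 705 CPM in Adult, and thus fell by 2.99 on the log2 scale (SE 0.14, adjusted p = 1.1e-11). All Juvenile libraries were above the T and NK maximum of 82.9 CPM, which is that of Adult 1, the lowest of them barely. T and NK cells of Juvenile 1, 3 and 4 held 0, 34.4 and 7.52 CPM of Trf. In Aged it was at 1088 and 1079 CPM, above each Adult library, without passing (log2 0.60, SE 0.16, adjusted p = 0.063), though it passed in 9 of 25 alternatives, among them that without a plexus cluster of high UMI counts (log2 0.69, adjusted p = 0.037), and in EAE at 307 and 340 CPM (log2 fold change -1.26, SE 0.16, adjusted p = 1.8e-05). The Juvenile and EAE calls passed under all 25 alternatives. Heph followed the reverse order of age. It was at 19.7 to 25.2 CPM in Juvenile (log2 1.01, SE 0.15, adjusted p = 1.4e-05), 9.57 to 11.0 in Adult and 2.44 and 2.52 in Aged (log2 fold change -2.02, SE 0.29, adjusted p = 0.00035). The Aged call did not pass without the cells carrying red cell RNA (adjusted p = 0.83).

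Smaller changes of the Juvenile plexus were a higher Tfrc (34.2 to 52.1 against 19.1 to 22.6 CPM, log2 0.74, SE 0.16, adjusted p = 0.00082) and a lower Fth1 (2491 to 3424 against 4077 to 4249 CPM, log2 fold change -0.67, SE 0.12, adjusted p = 9.5e-05). The first did not pass without doublets (adjusted p = 0.088), and the second did not pass without the cells carrying red cell RNA (adjusted p = 0.80). Hmox1 and Cp were also called lower, but at 5.63 to 47.9 CPM and 0 to 8.83 CPM over all libraries they overlapped the free RNA range. Aged choroid plexus had 1 call among 8, Heph, where 1.61% of genes were called (0.72% higher and 0.886% lower). In EAE 4 members were lower (Trf, Ftl1, Hmox1 and Steap3), where 33.4% of genes were called (17.2% higher and 16.3% lower). Of EAE plexus cells 51.3% fell in a cluster of high UMI counts that held 8.83% of Adult ones. Without that cluster the lower Trf passed with a smaller change (log2 fold change -0.74, SE 0.16, adjusted p = 0.0053), Hmox1 and Ftl1 did not pass (adjusted p = 0.29 and 0.058), and Steap3 did not pass the filter on low counts. Steap3, at 0.94 to 3.36 CPM in EAE and Adult, passed in 9 of 24 alternatives and Hmox1 in 18 of 25, not without Adult 1 or any Aged or EAE library.

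The condition effects of endothelium and choroid plexus were set against each other in 1 model, in which 10 of 24 values differed (21.8% of all gene by contrast values, 11% with the endothelial effect higher and 10.8% lower). In Juvenile, the endothelial change exceeded that of the plexus for Fth1 by 3.13 (SE 0.12), Tfrc by 1.47 (SE 0.18), Trf by 4.05 (SE 0.18), Hmox1 by 2.33 (SE 0.24) and Steap3 by 1.42 (SE 0.35) on the log2 scale. In EAE it was larger for Fth1 (1.77, SE 0.14) and Cp (1.28, SE 0.33) and lower for Tfrc (-1.14, SE 0.21) and Heph (-1.09, SE 0.36). In Aged, Trf differed by -1.57 (SE 0.20), with endothelial Trf at 24.3 to 95.1 CPM in these libraries, inside the free RNA range in all but Adult 1. Fth1, Trf, Tfrc and Hmox1 in Juvenile, Trf in Aged and Fth1 in EAE passed under all 25 alternatives; Cp in EAE did not without EAE 2, nor Heph without Adult 3, Juvenile 3 or either EAE library, and with 6 units Tfrc (adjusted p = 0.056) and Heph (adjusted p = 0.37) in EAE did not. Without the plexus cluster of high UMI counts, Cp (0.55, adjusted p = 0.59), Tfrc (-0.83, adjusted p = 0.12) and Heph (-0.66, adjusted p = 0.59) in EAE did not pass. Plexus Cp and Steap3 lay inside the free RNA range in every library.

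Glial cells were fewer, with 18 to 272 astrocytes per library. In Juvenile astrocytes 2 of 8 members were called, where 14.6% of genes were (6.25% higher and 8.34% lower). Trf was lower (24.8 to 83.3 against 91.5 to 177 CPM, log2 fold change -2.01, SE 0.33, adjusted p = 0.00019) with 3 of the 4 Juvenile libraries inside the free RNA range and Juvenile 2, at 83.3 CPM, at its edge, and did not pass without Adult 1 or without doublets. Fth1 was lower (1703 to 2305 against 2264 to 3167 CPM, log2 fold change -0.56, SE 0.14, adjusted p = 0.0041), at a level close to the 1811 to 1911 CPM of Juvenile T and NK cells, and did not pass without Adult 1 or Adult 3. No member was called in Aged astrocytes by edgeR, where 0.605% of genes were (0.0688% higher and 0.537% lower); 1 had an unadjusted p under 0.05, and DESeq2 also called 0. In EAE Fth1 was at 4525 and 4849 CPM (log2 0.88, SE 0.16, adjusted p = 0.0012; 2.61% of genes called, 1.72% higher and 0.894% lower), above each Adult library, while T and NK cells of the same libraries held 3184 and 3186 CPM; it did not pass with 6 units (adjusted p = 0.061) or without cells carrying red cell RNA (adjusted p = 0.096). Astrocyte Hmox1 was at 39.8 and 157 CPM in EAE against 16.1 to 54.9 CPM (adjusted p = 0.096).

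Myelin was removed before capture, which depletes oligodendrocytes and neurons, so that these are the cells left. Oligodendrocytes were too few in Juvenile 3 and 4 and in EAE to be counted. Their Trf was at 221 CPM in 18 cells of Juvenile 1 and 1395 CPM in 28 cells of Juvenile 2, at 7418 to 8294 CPM in Adult and at 5289 and 5567 CPM in Aged. Fth1 was at 945 and 5762 CPM in Juvenile, 16715 to 18748 in Adult and 23477 to 27681 in Aged, the highest level of any of the 6 cell types. With 1 averaged Juvenile sample and 13 to 15 cells per Aged library, these differences were not tested.

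Microglia and perivascular macrophages changed in part alike. In EAE microglia 1 member was higher and 3 lower, where 24.9% of genes were called (12% higher and 12.8% lower). In EAE perivascular macrophages 2 were higher and 2 lower, where 17.9% were called (10.2% higher and 7.75% lower). Microglia of EAE lay almost wholly (98%) in a cluster that held 10.3% of Aged and 2.08% of Adult microglia. In it 9 of the 10 microglial markers stood more than 1 on the log2 scale above the median of all clusters. That count was also used to name the cluster. Microglial Fth1 was at 8831 and 8585 CPM in EAE against 3626, 2626 and 3397 CPM in Adult (log2 1.58, SE 0.12, adjusted p = 2.5e-07). In perivascular macrophages it was at 10343 and 9953 against 8048, 8388 and 7960 CPM (log2 0.49, SE 0.12, adjusted p = 0.0036). Neither type overlapped with Adult, and the call in perivascular macrophages did not pass without EAE 1. Outside the types tested, EAE Fth1 was also above each Adult library, at 19221 and 19378 against 7838 to 9191 CPM in monocytes and macrophages, 9504 and 12683 against 3135 to 3795 CPM in fibroblast-like cells (18 to 23 cells per library) and 6567 and 5010 against 2060 to 3130 CPM in mural cells. The same held in T and NK cells (3184 and 3186 against 1871 to 2264 CPM), B cells (4712 and 3644 against 3192 to 3422 CPM) and neurons (1826 and 2341 against 1167 to 1393 CPM). It also held in choroid plexus, at 5143 and 5162 against 4077 to 4249 CPM, without a call (adjusted p = 0.23). The part of free RNA in these Fth1 levels was not tested. The Fth1 effect of EAE was larger in microglia than in perivascular macrophages by 1.09 (SE 0.11, adjusted p = 2.0e-11). It was the only member by contrast value of 21 that differed between these 2 types (3.8% of all values, 2.36% higher in microglia and 1.44% lower), and it passed under all 25 alternatives. Tfrc was lower in EAE in microglia (6.13 and 4.38 against 12.9 to 31.1 CPM, log2 fold change -1.68, SE 0.38, adjusted p = 0.0053) and in perivascular macrophages (12 and 6.40 against 24.0 to 28.8 CPM, log2 fold change -1.29, SE 0.40, adjusted p = 0.024), and passed in neither without EAE 2. Trf was lower in both, at 599 and 672 against 1097 to 1233 CPM in microglia and 968 and 1167 against 1443 to 2432 CPM in perivascular macrophages. These Tfrc levels lie inside or below the range of T and NK cells. Neither Trf call passed without EAE 1, nor that of perivascular macrophages without Adult 1. None of these 4 Tfrc and Trf changes passed with 6 units. Steap3 was called lower in EAE microglia at under 5 CPM, in 14 of 24 alternatives, and not without Adult 1, Adult 2 or either EAE library.

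Cp was higher in EAE perivascular macrophages, at 306 and 370 CPM against 134 to 181 CPM in Adult (log2 1.22, SE 0.21, adjusted p = 0.00036), and passed under all 25 alternatives. In Juvenile it was lower there, at 62.6 to 126 CPM (log2 fold change -1.06, SE 0.21, adjusted p = 0.0033), as it was in endothelium. Microglial Cp, at 2.07 to 12.3 CPM, stayed inside the free RNA range in all 11 libraries. Of Juvenile microglia 3 members were lower (22.5% of genes called, 9.79% higher and 12.7% lower), and of Juvenile perivascular macrophages 1 was higher and 3 lower (9.71% called, 3.9% higher and 5.81% lower). Trf was lower in Juvenile in both types (log2 fold change -0.70, SE 0.12, in microglia and -0.89, SE 0.15, in perivascular macrophages), as was Fth1 (-0.63, SE 0.10, and -0.52, SE 0.10); none of these 4 passed with 6 units, and microglial Fth1 also not without cells carrying red cell RNA (adjusted p = 0.60). Tfrc was higher in Juvenile perivascular macrophages, at 44.2 to 101 CPM against 24.0 to 28.8 (log2 1.28, SE 0.28, adjusted p = 0.0041), and passed under all alternatives.

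Hmox1 marked microglia and perivascular macrophages and changed with age in microglia. It was at 730, 630 and 634 CPM in Adult 1 to 3, at 273, 260, 353 and 358 CPM in Juvenile 1 to 4 and at 241 and 264 CPM in Aged 1 and 2, with no overlap between Adult and either other age. The log2 fold change was -1.16 in Juvenile (SE 0.14, adjusted p = 3.6e-05) and -1.41 in Aged (SE 0.17, adjusted p = 0.00074). In Aged it was the only member called in microglia, where 1.85% of genes were (1.02% higher and 0.828% lower). The Juvenile call passed under all 25 alternatives, and the Aged call did not with 6 units (adjusted p = 0.41). In EAE microglia Hmox1 was at 517 and 524 CPM (log2 fold change -0.19, SE 0.17, adjusted p = 0.44). In Aged perivascular macrophages it was at 228 and 256 CPM against 385 to 1023 CPM in Adult, without passing (adjusted p = 0.24; 0.018 without Adult 1). Fth1 was the 1 member called there in Aged (log2 0.46, SE 0.12, adjusted p = 0.027; 3.17% of genes called, 1.88% higher and 1.29% lower), in 14 of 25 alternatives, and not without either Aged library.

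Ftl1 could not be compared between conditions. Its level moved with the library in all cell types together: Juvenile 1 and 2 were 1.75 to 3.63 times Juvenile 3 and 4 in each of 11 cell types, and EAE 1 and 2 were at 0.159 to 0.439 of the mean of Adult 2 and 3 in the 8 and 7 types with at least 50 cells in these libraries. In endothelial cells it was at 868, 1049, 369 and 328 CPM in Juvenile, 1150, 1020 and 1200 in Adult, 606 and 881 in Aged and 253 and 177 in EAE. Calls were made in choroid plexus (Juvenile log2 fold change -1.37, SE 0.36; EAE -1.95, SE 0.45) and in EAE endothelium (-2.18, SE 0.61), but the condition and the library cannot be told apart. Without Adult 1 none of these 3 calls passed, and without either EAE library neither EAE call did; the endothelial call was lost without each of 7 libraries. The pseudogene Gm10116, also known as Ftl1-ps1, is 99.6% identical to the Ftl1 transcript over 910 bases, with 4 mismatches, and took 59448 UMIs against 176413 of Ftl1. The ratio of its UMIs to those of Ftl1 was 0.197 to 0.762 by library. Summing both left the 3 calls in place, with adjusted p of 0.013 to 0.049. Of copies of Fth1 only the pseudogene Fth-ps2 was looked at, which had 425 UMIs against 1405217 of Fth1.

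Within a library the ratio of the 2 ferritin chains was set beside that of other cell types. The shift of Ftl1 between libraries was not equal over types. Juvenile 1 and 2 were 1.75 times Juvenile 3 and 4 in choroid plexus and 3.63 times in perivascular macrophages. How the ratios of 2 types compare thus also depends on the library. In Adult there were 1.03 ± 0.0084 Fth1 UMIs per Ftl1 UMI in microglia, 1.69 ± 0.47 in perivascular macrophages and 2.28 ± 0.19 in endothelial cells (SD, n = 2). The ratio was 6.60 ± 1.5 in astrocytes, 7.89 ± 3.2 in choroid plexus and 22.7 ± 3.1 in oligodendrocytes. These ratios count UMIs and not protein. In EAE 1 and EAE 2 the order of the 2 myeloid types was reversed, with microglia above perivascular macrophages. The ratio was 41.3 ± 8.7 in EAE endothelium, in libraries whose Ftl1 was low in the other types too.

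**Figure D5:**
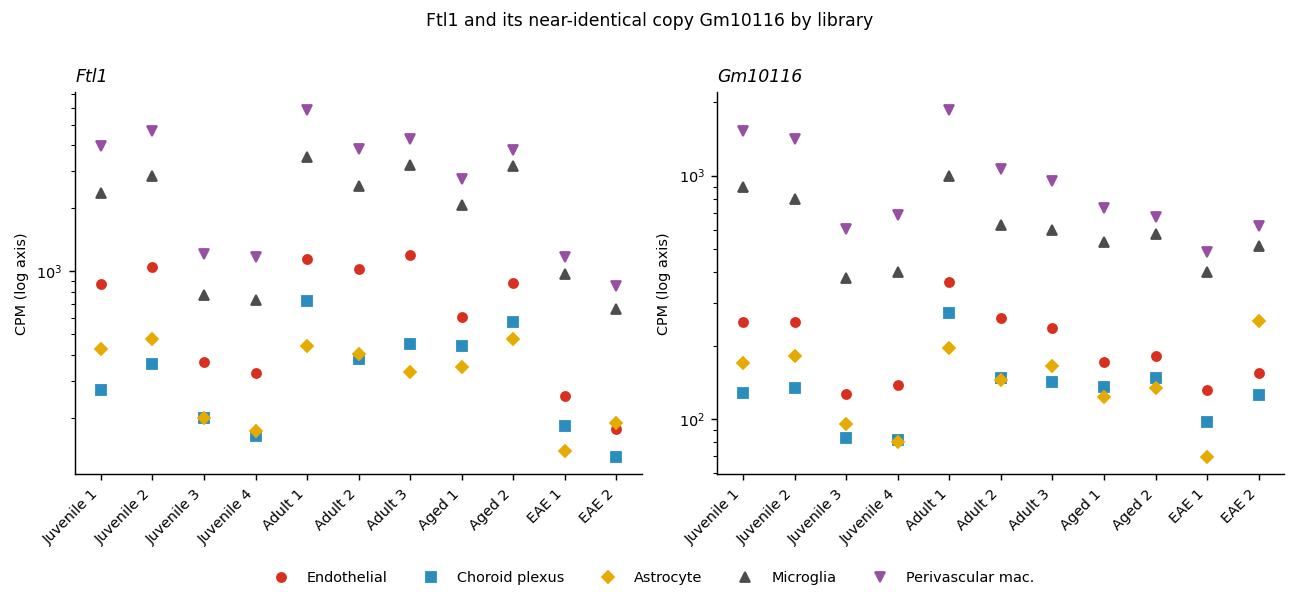
CPM on a log axis (y) of Ftl1 and of its near-identical copy Gm10116 in 11 libraries (x), with 1 symbol per cell type. All 5 cell types moved together, with Juvenile 3 and 4 and both EAE libraries low in each for Ftl1.

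Other genes of iron metabolism were read from a list of 47, of which 44 were in the tables. In endothelial cells 36 could be tested, and 10 rose and 9 fell in Juvenile, 3 rose and 1 fell in Aged, and 6 rose and 7 fell in EAE, where 36.4%, 6.19% and 24% of all endothelial genes were called. Slc40a1, the iron exporter ferroportin, was at 720 ± 84.8 CPM in Juvenile endothelium, 382 ± 159 in Adult and 150 ± 3.6 in EAE (log2 0.92, adjusted p = 0.0032, and log2 fold change -1.24, adjusted p = 0.0016). Slc39a8, a metal ion importer, took the same order, at 450 ± 25.9, 199 ± 4.9 and 87.4 ± 5.6 CPM. Slc11a2, the divalent metal transporter, and Ireb2, an iron regulatory protein, were also higher in Juvenile endothelium (log2 1.05 and 0.81). Alas1, the first enzyme of heme synthesis, was lower (log2 fold change -0.87). Lcn2, which binds iron-loaded siderophores, rose in EAE endothelium from 8.34 ± 3.1 to 1122 ± 36.0 CPM (log2 6.94, adjusted p = 1.0e-11), and in Aged to 44.7 ± 1.0 CPM (log2 2.11, adjusted p = 1.7e-05). The Aged level lay inside the range of Lcn2 in T and NK cells over all libraries (0 to 77.8 CPM), which held 6.71 and 6.34 CPM in Aged. These endothelial calls passed under all 25 alternatives.

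In choroid plexus 37 of these genes were tested, and 9 rose and 17 fell in Juvenile, 3 rose and none fell in Aged by edgeR, and 6 rose and 6 fell in EAE (57.1%, 1.61% and 33.4% of all genes called). Ireb2 was higher in Juvenile (58.2 ± 0.50 against 22.2 ± 0.48 CPM, log2 1.21), Scara5, a ferritin receptor, rose (log2 1.09), and Alas1 fell by 1.23 on the log2 scale, as did the biliverdin reductases Blvra (by 1.07) and Blvrb (by 0.80). In EAE Steap2, a metalloreductase, rose from 144 ± 27.4 to 370 ± 19.7 CPM (log2 1.28), and by 0.78 without the cluster of high UMI counts, of which it is a leading gene. Slc40a1 was called lower in EAE plexus (log2 fold change -2.34, adjusted p = 3.1e-07), also without the cluster of high UMI counts (-1.74, adjusted p = 0.0015). At 3.85 to 28.9 CPM over all libraries it lay inside its range of 0 to 57.0 CPM in T and NK cells. The highest of these values was that of Aged 2. T and NK cells held 5.92 to 16.2 CPM of it in Adult and 9.43 and 10.3 CPM in EAE. The part of free RNA in this call was not tested. In astrocytes 19 were tested, and 1 rose (Cybrd1, a ferric reductase, log2 2.11) and 1 fell (Alas1, log2 fold change -1.14) in Juvenile; none was called in Aged by edgeR (3 at an unadjusted p under 0.05) or by DESeq2. Cybrd1 did not pass without Adult 1 or Juvenile 4 or with DESeq2, nor Alas1 without Adult 1. The shares of all genes were 14.6% and 0.605%, and 2.61% in EAE. Lcn2 was the 1 called in EAE, at 527 and 115 CPM, from 53 and 11 UMIs, where the Adult libraries were at 0, so that no fold is given; the call did not pass without Adult 1 or Juvenile 3. T and NK cells of the EAE libraries held 65.0 and 77.8 CPM of Lcn2, and the part of free RNA in the astrocyte values was not tested.

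In microglia 32 were tested, and 4 rose and 4 fell in Juvenile, 1 rose and 1 fell in Aged, and 6 rose and 8 fell in EAE (22.5%, 1.85% and 24.9% of all genes called). Slc40a1 fell in EAE microglia (74.6 ± 2.8 against 140 ± 33.7 CPM, log2 fold change -0.72; not without Adult 1 or EAE 2, nor with 6 units), Slc25a37, a mitochondrial iron importer, fell by 1.42 and Nfe2l2, a regulator of antioxidant genes, rose by 0.70 on the log2 scale, though not with 6 units. In perivascular macrophages 27 were tested, and 3 rose and 3 fell in Juvenile, 1 fell in Aged, and 4 rose and 3 fell in EAE (9.71%, 3.17% and 17.9% of all genes called). Slc40a1 was at 490 ± 113 CPM there in Juvenile, 312 ± 12.4 in Adult, 182 ± 2.6 in Aged and 85.9 ± 15.1 in EAE, and passed in each comparison (adjusted p = 0.023, 0.027 and 1.6e-07). The EAE call passed under all 25 alternatives, while the Juvenile call passed in 19 and the Aged call in 18 of 25, neither with 6 units or DESeq2, the first not without Juvenile 1 or 2 and the second not without Adult 1 or either Aged library. Slc40a1 was thus called lower in EAE endothelium, microglia and perivascular macrophages, in which Fth1 was called higher, the microglial Slc40a1 call not under every alternative. It was also called lower in EAE choroid plexus, where Fth1 was not called. In Juvenile both genes were higher in endothelium and lower in choroid plexus, with plexus Slc40a1 inside the free RNA range. In Juvenile and Aged perivascular macrophages they moved in opposite directions. How the 2 genes relate was not tested. Cd163, the receptor for hemoglobin bound to haptoglobin, rose in EAE perivascular macrophages from 331 ± 57.7 to 747 ± 29.6 CPM (log2 1.34). The study, which read single cells and not sums per library, describes Cd163 in these cells as unchanged or decreased in EAE. Ncoa4, which delivers ferritin for degradation, was lower in Juvenile and in EAE perivascular macrophages (log2 fold changes -2.13 and -1.69), the latter not without EAE 1 or with DESeq2.

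The genes whose level was most like that of a member were ranked by Pearson's r of log2(CPM + 1) over 50 means per cell type and condition, among genes that share libraries and depth, and given without a test. Tfrc was nearest to Slc39a10 (r = 0.81), Mfsd2a (0.79) and Igfbp3 (0.73), of which Mfsd2a is a lipid transporter of the blood-brain barrier. Cp was nearest to Cebpd (0.83) and Ecm1 (0.83). Hmox1 was nearest to the myeloid genes Aif1 (0.88), C1qb (0.87) and Fcgr1 (0.87), and Trf to the lysosomal genes Lamp2 (0.71) and Ctsb (0.70). For Fth1 the nearest were Msrb1 (0.70) and Apoc2 (0.67), and for Steap3 Htra3 (0.78) and Fzd1 (0.77). Ftl1 was nearest to its copy Gm10116 (0.88).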

How the data were processed

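Cells of perfused mouse cortex, dissociated with papain and Liberase and cleared of myelin by centrifugation in bovine serum albumin, were captured by droplet single-cell RNA sequencing (10x Chromium, 3′ v2 chemistry) in 11 libraries. The deposited values are UMI counts per gene and cell, made by the authors with bcl2fastq 2.19.1.403, STAR 2.5.3a, UMI-tools 0.5.3 and featureCounts 1.6.1 on build mm10, as the submitters' processing notes name them; the study's methods name later versions of STAR, UMI-tools and featureCounts. Their groups come from the labels. Each library held 15755504 to 34326349 UMIs, and kept cells had a median of 2420 to 4200 UMIs; CPM rest on UMIs summed over a cell type, and p-values cover the spread between libraries only.

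Cells with 500 to 6000 genes and at most 25% mitochondrial UMIs were kept and clustered with Seurat 5.3.0 (12 components, resolution 0.5). Clusters were named from marker lists; the limits for a name were chosen with the clusters in view. Scrublet in scanpy 1.11.5 marked 818 cells (1.62%) as doublets, which stayed in and were left out as an alternative; library pairs shared 13 to 125 cell barcodes. UMIs were summed per library and type (at least 10 cells), Adult 2 and 3 as 1 unit, and tested with edgeR 4.0.16 (TMM, filterByExpr, quasi-likelihood F test) over all genes and conditions, with Benjamini-Hochberg adjustment within each cell type and contrast and a threshold of 0.05. Endothelial subtypes were clustered after integration without the iron genes. DESeq2 1.42.0, other units of replication (6 units sum each pair of like libraries), cell filters, clustering and leaving out each library were the alternatives. On simulated counts for Juvenile against Adult endothelium (13044 genes), 58.3% of genes lowered by 1 on the log2 scale were called; the share was 43.5% for EAE against Adult endothelium (13036 genes) and 26.1% for the difference between microglia and perivascular macrophages in EAE (10011 genes).

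The 8 members are named throughout. Of the other iron genes, up to 6 per contrast and type could be named, by the largest log2 fold change among those called with at least 20 CPM and no overlap. The members and lists were chosen with earlier results of these data known. IRE hairpins were searched in the UTRs of GENCODE M21 transcripts on GRCm38, and the Ftl1 copy was aligned with blastn 2.17.0. The genes whose level was most like that of Heph are not reported here.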

Additional observations from a re-analysis of the deposited data

Results flagged for a closer look

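Among 40 groups of 4 Juvenile libraries, 1 held a library far from the others, where chance gives about 1 in 20: Trf in astrocytes of Juvenile 2, at 83.3 CPM against 24.8, 33.4 and 33.1 CPM. Of 45 differences between the effects in 2 cell types, 11 passed the test of the difference. The Fth1 effect of EAE was larger in microglia than in perivascular macrophages by 1.09 on the log2 scale (adjusted p = 2.0e-11). Between endothelium and choroid plexus, the Juvenile effects differed by 3.13 (Fth1), 4.05 (Trf), 2.33 (Hmox1), 1.47 (Tfrc) and 1.42 (Steap3), the Aged effect of Trf by -1.57, and the EAE effects by 1.77 (Fth1), 1.28 (Cp), -1.14 (Tfrc) and -1.09 (Heph), all as endothelial minus choroid plexus on the log2 scale. Endothelial Trf, Hmox1 and Steap3 and choroid plexus Hmox1 lay partly, and choroid plexus Cp and Steap3 wholly, inside the range of free RNA, and the part of free RNA in these differences was not tested.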

How the results depend on the processing

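No direction of a called result was reversed under any alternative. Only called results, those between cell types included, were followed: set against each alternative, 3243 kept the call and 149 lost it. With 6 units 116 kept the call and 25 lost it. Results without a call that passed under an alternative are not in these counts. Summing each pair of like libraries (6 units) gave 9 calls among the members in EAE in place of 18, and 40, 3 and 22 calls among the other iron genes in Juvenile, Aged and EAE in place of 61, 10 and 47. Leaving out 1 library gave 11 to 20 calls of members in EAE, lowest without either EAE library, and 2 to 12 (Aged) and 28 to 50 (EAE) calls of other iron genes, lowest without Aged 2 and EAE 2. With 11 separate libraries 17 other iron genes were called in Aged. DESeq2 called 2 differences between microglia and perivascular macrophages in place of 1, and 5 members in arterial cells in place of 3. Adult Fth1 in oligodendrocytes was 18284 CPM with totals without Ttr and 17859 CPM without doublets, in place of 17750 CPM. Of 392 mean levels of members, 71 moved by over 1 SD with totals without Ttr and 50 without doublets, and 61 of 384 did at resolution 0.9. Deviations of libraries with the same replicate number had a median r of -0.018 in endothelial cells and -0.024 in microglia (over 0.1 in 3 and 0 of 13 pairs). They were taken from the mean of each condition, so that the 2 libraries of Aged, or of EAE, mirror each other. The 13 pairs are therefore not independent, and the check cannot settle whether the numbers pair libraries. A replicate block with 11 separate libraries called 11 members in Aged in place of 6. The alternatives on the unnamed cluster of Adult 1, the choroid plexus cluster of high UMI counts and the sum of Ftl1 with Gm10116 were chosen after seeing the data. The cause of these changes was not tested. With 2 to 4 samples per condition in the tests and 18 to 20 astrocytes in Adult 2 and 3, small differences could be missed.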
